A study of Mus musculus with 221 samples.

Results

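Among single early 2-cell mouse embryos sired by males on a low-fat diet (LFD, 99 embryos) or a high-fat diet (HFD, all the rest), 8 stood far below the other 213 in the number of genes with any count. These embryos were chosen by that number alone: the median embryo had 18833 genes with a count above 0, the median absolute deviation was 819 genes, and an embryo was called few-gene when it lay more than 3 such deviations, scaled to match a standard deviation, below the median. The limit was 15190 genes. Because the gene number was made from the same counts, it is given as a description and has no test. The embryos came from in vitro fertilization of oocytes of C57BL/6N-mtST females, whose mitochondrial DNA is that of the Staudach line, with sperm of C57BL/6N males that had been frozen and thawed, from 4 males per diet. Each library held the RNA of 1 whole embryo, copied from its poly(A) tail and amplified by the Smart-seq2 protocol. Each diet contributed 4 few-gene embryos. Sire and fertilization date are not given per embryo in the labels, so whether few-gene embryos shared either was not tested.

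At this stage the embryo passes from transcripts stored in the oocyte to its own. Maternal messengers, such as those for the egg coat and for the subcortical maternal complex, are degraded in waves, while zygotic genome activation switches on a brief programme of 2-cell-stage genes, including the Zscan4 cluster. Transcripts of the mitochondrial genome come from the many mitochondria of the oocyte, and ribosomal protein genes supply the machinery for new ribosomes. The comparison below asks which of these classes carried the missing genes.

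The lowest gene numbers were 11364 in LFD embryo 33, 11415 in HFD embryo 42 and 12015 in HFD embryo 48. HFD embryo 64 had 12918 genes, LFD embryo 73 had 14124, LFD embryo 2 had 14455, LFD embryo 26 had 14707 and HFD embryo 72, the member nearest the limit, had 14853. On the other side of the limit, LFD embryo 10 had 15349 genes and the next embryo 15564. The numbers ran on across the limit without a wide gap, and within the group they left a wider one, with 4 embryos up to 12918 genes and 4 from 14124 to 14853.

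**Figure D1:**
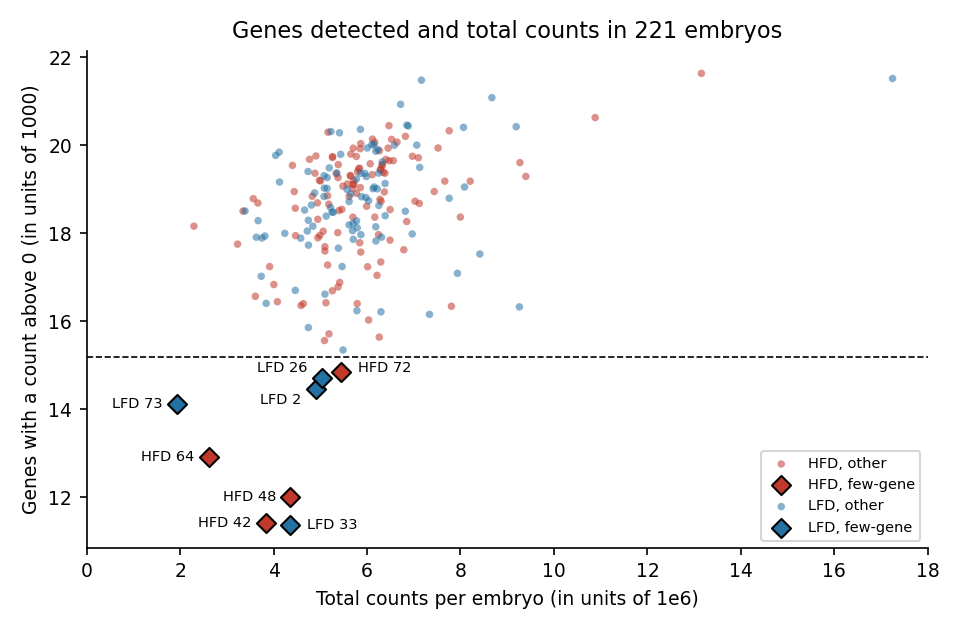
Genes with a count above 0 (in units of 1000) against total counts (in units of 1e6) for each embryo, coloured by diet of the sire; diamonds are the 8 few-gene embryos and the dashed line is the limit of 15190 genes. The few-gene embryos had totals between 1937251 and 5451044 counts, and other embryos of like totals had more genes.

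Few-gene embryos had 1937251 to 5451044 counts in total, and all 8 lay below the median of the others, whose totals ran from 2296020 to 17246791. LFD embryo 73 alone had fewer counts than every embryo outside the group. After each embryo was thinned to the same 1937251 counts, the 8 embryos still had 10880 to 14155 genes and the other embryos 14619 to 19280. The groups did not overlap at equal depth either, but the thinned numbers come from the counts that chose the embryos and carry no test. The same rule on thinned numbers called these 8 and LFD embryo 10.

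Few-gene embryos were 3.28% of HFD embryos (exact 95% binomial interval 0.900 to 8.18) and 4.04% of LFD embryos (1.11 to 10.02), with an odds ratio of 0.805 and p = 1 by Fisher's exact test, 2-sided. The intervals leave room for a difference of several percentage points either way. Their embryo numbers ran from 2 to 73.

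Losses followed the level of the gene. Of the 2038 genes with a mean above 100 CPM (counts in each 1000000 counts of the embryo) in the other embryos, the median few-gene embryo retained 2036. Between 10 and 100 CPM it held a count for 6148 genes against 6823 in the median other embryo, a loss of 9.89%. Between 1 and 10 CPM it held 3758 against 6400 genes, a loss of 41.3%, and between 0.1 and 1 CPM 1233 against 2953, a loss of 58.2%. In the class from 1 to 10 CPM, the highest few-gene embryo (4363 genes) lay below the lowest other embryo (4704). By gene type, 24.01% of protein coding, 39.1% of long non-coding RNA and 39.9% of pseudogene detections were missing in the median few-gene embryo. These values restate the choice of the embryos in finer classes and carry no test.

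**Figure D2:**
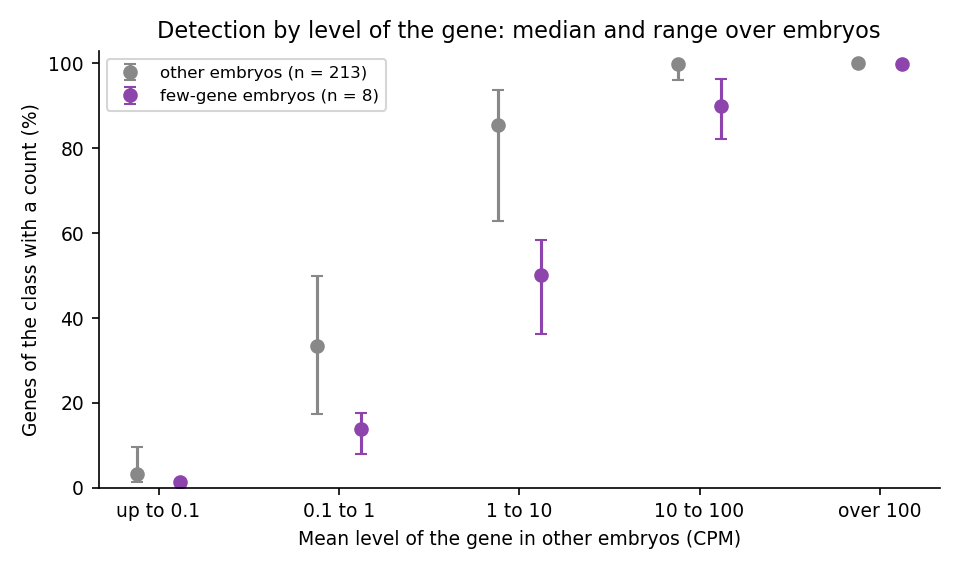
Share of genes with a count (%), by mean level of the gene in the other embryos (CPM); points are medians over embryos and bars the full range, for 8 few-gene and 213 other embryos. The classes above 100 CPM are almost complete in both groups, and the gap is widest between 1 and 10 CPM.

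The losses reached genes that every other embryo held. A count in all 213 other embryos was found for 7646 genes, and 1860 of these (24.3%) were at 0 in at least 1 few-gene embryo. The number per embryo ran from 91 in HFD embryo 72 to 697 in HFD embryo 42, with a median of 326. The same count for each other embryo, of genes that the remaining other embryos all held, had a median of 1 and exceeded 91 in 1 embryo. These counts, and the shares of genes lost below, are made of the detection that chose the embryos and carry no test. Most were missing here and there rather than together. Of the 1860 genes, 677 were at 0 in 2 or more few-gene embryos, 233 in 3 or more and 56 in 4 or more. The largest number was 6 of 8 embryos, for Trappc12, Pnpla7, Gm44759 and Fuz, which were singled out after their values were seen. Trappc12 encodes a subunit of a vesicle tethering complex and averaged 17.2 CPM in the other embryos. Pnpla7, a lysophospholipase gene, averaged 11.8 CPM, and no gene was at 0 in 7 or 8 embryos.

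Level again ordered these losses. Of such genes with a mean up to 10 CPM, 267 of 429 (62.2%) were at 0 in a few-gene embryo, and of those from 10 to 30 CPM 984 of 2045 (48.1%). The share was 18.5% from 30 to 100 CPM (581 of 3139) and 1.43% from 100 to 1000 CPM (28 of 1963), and none of the 70 genes above 1000 CPM was lost. A count of 0 allows a level of up to 3 counts, which is 1.55 CPM in LFD embryo 73 and 0.550 CPM in HFD embryo 72 by counting error alone, so absence of the transcript is not shown.

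By gene list, the genes at 0 can be read beside the 24.3% of all such genes. Of 44 maternal oocyte transcripts present in all other embryos, 4 were at 0 in a few-gene embryo (9.09%): the germ cell helicase gene Ddx4, Nlrp2, Nlrp9b and Plat. Of 36 transcripts of the 2-cell stage, 4 were lost (11.1%): Pramef6, Pramel6, Usp17la and Zscan4b. Of 77 ribosomal protein genes, 7 were lost (9.09%), among them Rpl3, Rpl12 and Rps20. None of the 13 mitochondrial mRNAs, 2 mitochondrial rRNAs or 8 mitochondrial tRNAs present in all other embryos was lost. Of all 22 mitochondrial tRNA genes, the median few-gene embryo had a count for 13 and the median other embryo for 15. The list medians of 237 CPM for maternal, 137 CPM for 2-cell-stage and 2411 CPM for mitochondrial mRNAs lie above the 49.1 CPM of all 7646 genes, while ribosomal protein genes (51.6 CPM) lie near it and mitochondrial tRNAs (10.4 CPM) below it. The part of level in these shares was not tested.

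Other lists ran from 2 of 2 macrophage markers (Apoe and Csf1r) down to 0. Of 47 nuclear genes of the respiratory chain, 12 (25.5%, beside 24.3% of all such genes) were at 0 in some few-gene embryo, including Sdha, which encodes the flavoprotein of complex II, and Uqcrfs1, the Rieske iron-sulphur protein of complex III. Their median level was 27.97 CPM. Losses also touched 6 of 27 mRNA decay factors (22.2%, among them Xrn1, the cytoplasmic 5′ to 3′ exonuclease, and Upf1, the helicase of nonsense-mediated decay), 6 of 30 proteasome subunits, 4 of 33 nucleolar ribosome assembly factors, 4 of 18 p53 targets and cell death genes, 2 of 7 stress response genes, 2 of 34 cell cycle genes and none of 11 heat shock and first zygotic transcripts.

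Levels could be compared for the 5786 genes with a count in every embryo, whose detection cannot have chosen the members. This set leaves out any gene that fell to 0 and so understates falls. In edgeR's quasi-likelihood test with diet as a covariate and Benjamini-Hochberg adjustment over all 21438 genes tested, 1415 of the 5786 genes were higher in few-gene embryos (24.5%) and 1539 were lower (26.6%) at a false discovery rate (FDR) of 0.05. With DESeq2-type scaling in the same test (RLE), which moved the median of all tested genes from -0.27 to -0.11 on the log2 scale, 1882 were higher and 1181 lower.

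These counts rest on a common spread, which the few-gene embryos did not share. Rank correlations over 14714 genes were 0.566 to 0.743 (median 0.672) between pairs of few-gene embryos, with a median of 0.716 between few-gene and other embryos and 0.874 between other embryos. In the medians, few-gene embryos were thus less like each other than like the rest. The genes used, above 1 CPM in the median other embryo, include genes whose detection chose the embryos. These correlations are therefore a description and carry no test. Against the mean of the other embryos, the correlation was lowest in HFD embryo 42 (0.715) and highest in HFD embryo 72 (0.858), where the median other embryo reached 0.934. The fitted spread over all tested genes, which takes in dropout, was 1.57 times that of the other embryos. A second test was therefore run with limma on the deviation of each few-gene embryo from the mean of the other embryos of its diet, so that the spread was that of the 8 embryos alone. It called 261 genes higher (4.51%) and 427 lower (7.38%). A gene is said below to have risen or fallen only where edgeR, this test and a limma-voom fit with a weight for each group all called it, which held for 214 genes higher and 291 lower. Those named among them were in part chosen after their values were seen. Fold changes are edgeR's, as log2 of few-gene over other, and their SEs rest on the common spread.

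Summed over the list, maternal oocyte transcripts stood at 16.3 log2 CPM in the median few-gene embryo (15.9 to 16.5) and at 16.2 in the median other embryo (15.1 to 16.7), so the groups overlapped throughout. Of 40 members among the always-detected genes, edgeR called 9 higher (22.5%, beside 24.5% of all 5786 genes) and 13 lower (32.5%, beside 26.6%), with a median fold change of -0.19 beside -0.02 for all 5786 genes. By the 3 tests together, 3 rose and 1 fell. Omt2a and Omt2b, related oocyte-expressed genes on chromosome 9 that may share reads, rose most firmly. Omt2a ranged from 5240 to 16236 CPM in few-gene embryos (median 11376) and had a median of 4495 CPM in others, with a log2 fold change of 1.43 ± 0.10 (SE, edgeR adjusted p = 9.77e-31, limma adjusted p = 0.00304). All 8 embryos were above the others' median, with the lowest value in LFD embryo 2.

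Dppa3, which shields the maternal genome from demethylation, had 2983 to 12373 CPM (median 7137) in few-gene embryos and a median of 3123 CPM in others. It rose by a log2 fold of 1.28 ± 0.14 (edgeR adjusted p = 3.64e-15, limma adjusted p = 0.0110), with 7 of 8 embryos above the others' median. Padi6, which the oocyte needs for its cytoplasmic lattices, fell from a median of 113.4 to 66.02 CPM, with every few-gene embryo below the others' median. Other maternal genes did not pass. Gdf9, an oocyte growth factor, had a median of 356 CPM against 338 CPM (log2 -0.15 ± 0.15) and Nlrp5, a member of the subcortical maternal complex, 151 against 143 CPM (log2 -0.07 ± 0.20). Zp3, the zona pellucida sperm receptor, was called by edgeR (log2 0.88 ± 0.17) and not by the test on deviations (0.77 ± 0.28, adjusted p = 0.0871).

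Transcripts of the 2-cell stage summed to 12.6 log2 CPM in the median embryo of both groups, with few-gene embryos from 12.2 to 13.3. Of 32 always-detected members, edgeR called 7 higher (21.9%, beside 24.5% of all genes) and 12 lower (37.5%, beside 26.6%), with a median of 0.09. Single genes moved far in opposite directions. Zscan4d, a marker of the 2-cell stage that acts on telomeres, belongs to a cluster of near-identical copies among which reads may be split. It had 280 to 1391 CPM (median 648) in few-gene embryos and a median of 272 CPM in others, and rose by a log2 fold of 1.23 ± 0.22 with 8 of 8 embryos above the others' median. Tmem92, a membrane protein gene of this stage, had 9.90 to 163 CPM (median 60.2) where others had a median of 266 CPM, and fell by 2.03 ± 0.25 on the log2 scale. Pramef25, of the PRAME family, fell by 2.30 ± 0.34 on the log2 scale, from a median of 117.9 to 18.3 CPM. Zfp352, a zinc finger gene of the 2-cell stage, had 128.02 to 584 CPM (median 337) beside a median of 490 CPM, and its edgeR call (adjusted p = 0.0491) was lost in most other settings, with adjusted p up to 0.191 when 1 few-gene embryo was left out. The log2 ratio of the 2-cell to the maternal sum was -3.78 in the median few-gene embryo and -3.55 in the median other embryo, with few-gene values from -4.10 to -2.94 inside the others' range of -4.97 to -2.40.

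**Figure D3:**
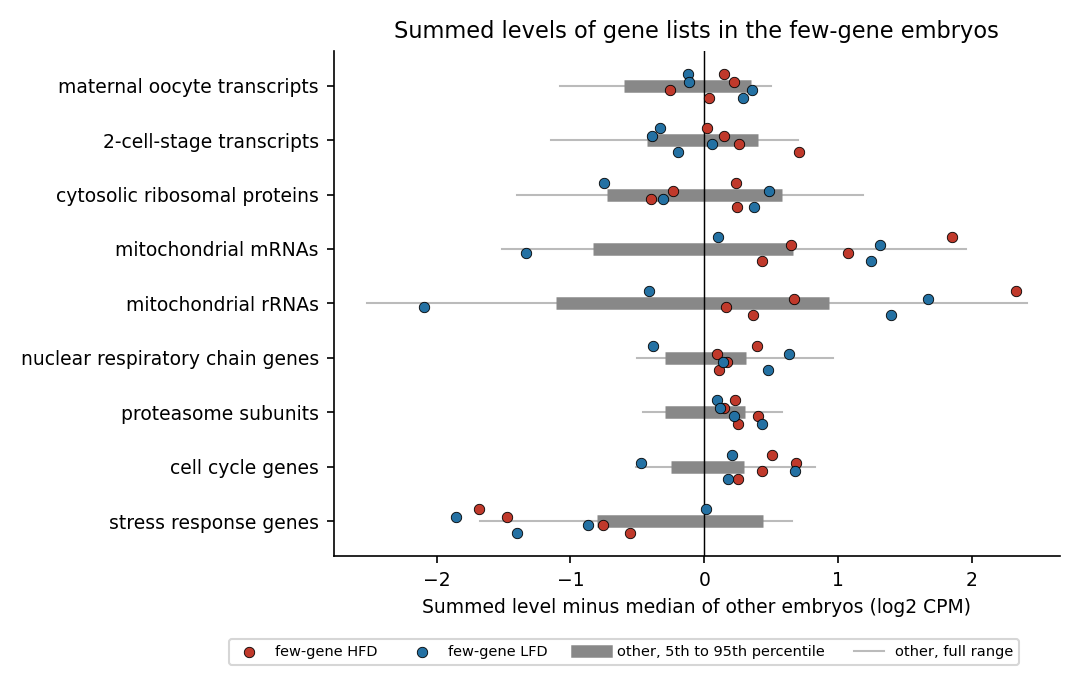
Summed level of 9 gene lists in each few-gene embryo minus the median of the 213 other embryos (log2 CPM); red and blue points are HFD and LFD few-gene embryos, thick bars span the 5th to 95th percentile and thin lines the full range of other embryos. Maternal, 2-cell-stage and ribosomal sums scatter around 0, mitochondrial sums lie mostly above it with LFD embryo 33 far below, and 7 of 8 stress sums lie below it.

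Ribosomal protein genes summed to 12.6 log2 CPM in both medians (few-gene 11.8 to 13.05) and took 0.614% of counts in the median few-gene embryo and 0.604% in the median other embryo. Of 70 always-detected members, 13 were called higher (18.6%, beside 24.5% of all genes) and 7 lower (10%, beside 26.6%), and 50 did not pass, with a median of 0.05. By the 3 tests, Rpl28 and Rps21 rose and Rplp0 and Rps2 fell. Rplp0, the core of the ribosomal stalk, went from a median of 1101 to 567 CPM, and Rpl28, of the large subunit, from 56.5 to 126.3 CPM. Rpl3 was at 0 in 1 few-gene embryo and had similar medians of 23.3 and 22.8 CPM. Nucleolar assembly factors had 8 called higher and 9 lower of 29, shares of 27.6% and 31.03% near the 24.5% and 26.6% of all genes, and none of them by all 3 tests. Polr1c, a subunit of RNA polymerases I and III, stood at 301 against 148 CPM and Noc3l, which acts in assembly of the large subunit, at 18.4 against 60.4 CPM.

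Mitochondrial RNA took a larger share of counts than in the median other embryo in 7 of 8 few-gene embryos. Genes of the mitochondrial genome took 18.1% of counts in HFD embryo 42, 12.4% in LFD embryo 26, 11.5% in LFD embryo 73, 9.46% in HFD embryo 64, 7.51% in HFD embryo 48, 6.43% in HFD embryo 72, 4.96% in LFD embryo 2 and 1.82% in LFD embryo 33. The median other embryo had 4.86% (5th to 95th percentile 2.75 to 7.54, range 1.58 to 19.4). Thus 4 of the 8 embryos exceeded the others' 95th percentile and 1 lay below the 5th. In summed log2 CPM, mitochondrial mRNAs stood at 16.2 against 15.3, rRNAs at 13.04 against 12.52 and tRNAs at 9.54 against 8.85 in the medians. Of 13 mRNAs, edgeR called 6 higher (46.2%, beside 24.5% of all genes) and 1 lower (7.69%, beside 26.6%), with a median of 0.41, and it called both rRNAs and 6 of 8 always-detected tRNAs higher. The spread among few-gene embryos was so wide that by all 3 tests only mt-Cytb among the mRNAs and mt-Tm, mt-Tp and mt-Tt among the tRNAs rose.

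mt-Cytb, the cytochrome b of complex III, had 6319 to 79680 CPM (median 25054) in few-gene embryos and a median of 7879 CPM in others. Its log2 fold change was 1.79 ± 0.14 (edgeR adjusted p = 3.82e-24, limma adjusted p = 0.0180), and 7 of 8 embryos were above the others' median. mt-Tt lies beside mt-Cytb on the same strand of the mitochondrial genome, and mt-Tp lies next to mt-Tt on the opposite strand. The libraries do not mark strand, so reads that run from mt-Cytb across its neighbours can be counted for either tRNA gene. mt-Co1, the catalytic subunit of complex IV, did not pass (8683 against 7860 CPM, log2 0.41 ± 0.19, adjusted p = 0.0665), nor did mt-Nd1, mt-Nd5, mt-Co2 or mt-Co3. mt-Nd3 did not pass either and had the opposite sign (247 against 444 CPM, log2 -0.48 ± 0.25, 2 of 8 embryos above the others' median). mt-Rnr2, the large ribosomal RNA, was called by edgeR (log2 0.85 ± 0.21) and not with the few-gene spread (0.51 ± 0.46, adjusted p = 0.461). mt-Nd2 was called by edgeR at 1.33 ± 0.19, which was 0.81 without LFD embryo 26, and was not called on deviations (adjusted p = 0.0949). mt-Nd4l alone was called lower by edgeR and not by the weighted fit (adjusted p = 0.119), with a median of 314 against 520 CPM and all 8 embryos below the others' median. Mitochondrial transcripts thus differed by unequal amounts.

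Of 35 always-detected nuclear genes of the respiratory chain, edgeR called 17 higher (48.6%, beside 24.5% of all genes) and 3 lower (8.57%, beside 26.6%), with a median of 0.51. By the 3 tests together, 2 rose. Cycs, which encodes cytochrome c, rose from a median of 60.97 to 199 CPM (few-gene range 83.1 to 276, all 8 above the others' median, log2 1.62 ± 0.13, limma adjusted p = 8.80e-04). Atp5g1, for a c subunit of ATP synthase, rose from 167 to 293 CPM. The list's summed level was above the others' median in 7 of 8 embryos, at 11.7 against 11.5 log2 CPM in the medians. Atp5d was at 0 in all 8 few-gene embryos, with a median of 3.11 CPM in others, of which 193 had a count.

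Transcripts of the cell cycle and the proteasome included firm changes both ways. Mad2l1, a spindle checkpoint gene, rose from a median of 658 to 1797 CPM (log2 1.37 ± 0.11, 7 of 8 above the others' median), and Pttg1, which encodes securin, rose from 702 to 2012 CPM in 8 of 8. Aurkc, the meiotic Aurora kinase, rose from 110.5 to 253 CPM. Espl1, for separase, the protease that securin restrains, fell from a median of 121.1 to 27.5 CPM (log2 -1.58 ± 0.20). Of 32 cell cycle genes, edgeR called 7 higher (21.9%, beside 24.5% of all genes) and 11 lower (34.4%, beside 26.6%). Psmb6, a catalytic subunit of the proteasome core, rose from 133 to 293 CPM in 8 of 8 embryos, whereas Psmd3, of the regulatory lid, fell from 285 to 80.5 CPM in 8 of 8. Of 24 proteasome genes, 6 were called higher, a share of 25% near the 24.5% of all genes, and 3 lower (12.5%, beside 26.6%).

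More mRNA decay factors were called lower than higher. Of 21 always-detected members, edgeR called 3 higher (14.3%, beside 24.5% of all genes) and 10 lower (47.6%, beside 26.6%), with a median of -0.48, and the test on deviations called 7 lower (33.3% of the members, beside 7.38% of all genes). By all 3 tests, 4 fell. Cnot1, the scaffold of the CCR4-NOT deadenylase, went from a median of 136 to 77.96 CPM, and Pan2, the nuclease of the PAN2-PAN3 deadenylase, from 457 to 186 CPM. Tob2, which recruits CCR4-NOT, went from 145 to 48.95 CPM and Exosc10, the nuclear exosome ribonuclease, from 107.3 to 12.2 CPM. Pan3, the partner of Pan2, was the other way (241 to 459 CPM, log2 1.32 ± 0.14 by edgeR) with adjusted p = 0.341 on deviations. The list's median length was 6719 bases, against 4329 bases for all 5786 genes, and its part in these values was not tested.

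The summed level of stress response genes was low in most of these embryos. It was 9.29 log2 CPM in the median few-gene embryo (8.57 to 10.4) and 10.4 in the median other embryo, with 7 of 8 below the others' median and 5 below the 5th percentile. The sum takes in dropout, with 13 of 19 genes detected in the median few-gene embryo against 17, and has no test. Of 5 always-detected members, edgeR called 4 lower (80%, beside 26.6% of all genes) and 1 higher (20%, beside 24.5%). The test on deviations called 1 lower, and none passed all 3 tests. Atf4, the transcription factor of the integrated stress response, had 11.9 to 104.3 CPM (median 81.5) beside a median of 149 CPM and was called by edgeR (log2 -1.03 ± 0.18), with adjusted p = 0.0545 on deviations. Ppp1r15a, which returns eIF2 to its active state, stood at 213 against 456 CPM (log2 -0.997 ± 0.18, adjusted p = 0.0740 on deviations). Of the heat shock and first zygotic transcripts, 3 of 11 were called lower by edgeR (27.3%, near the 26.6% of all genes), including Hsf1 (162 against 296 CPM) and Hspa1a (53.9 against 121.7 CPM), and none on deviations. Hspa8 did not pass (184 against 237 CPM). Among p53 targets and cell death genes, 2 were called higher (14.3%, beside 24.5% of all genes) and 7 lower (50%, beside 26.6%) of 14. Gtse1, a p53 regulator of the G2 phase, fell from 80.9 to 11.9 CPM in 8 of 8 embryos. Birc5, which encodes survivin, stood at 519 against 409 CPM and was not called on deviations (adjusted p = 0.119).

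**Figure D4:**
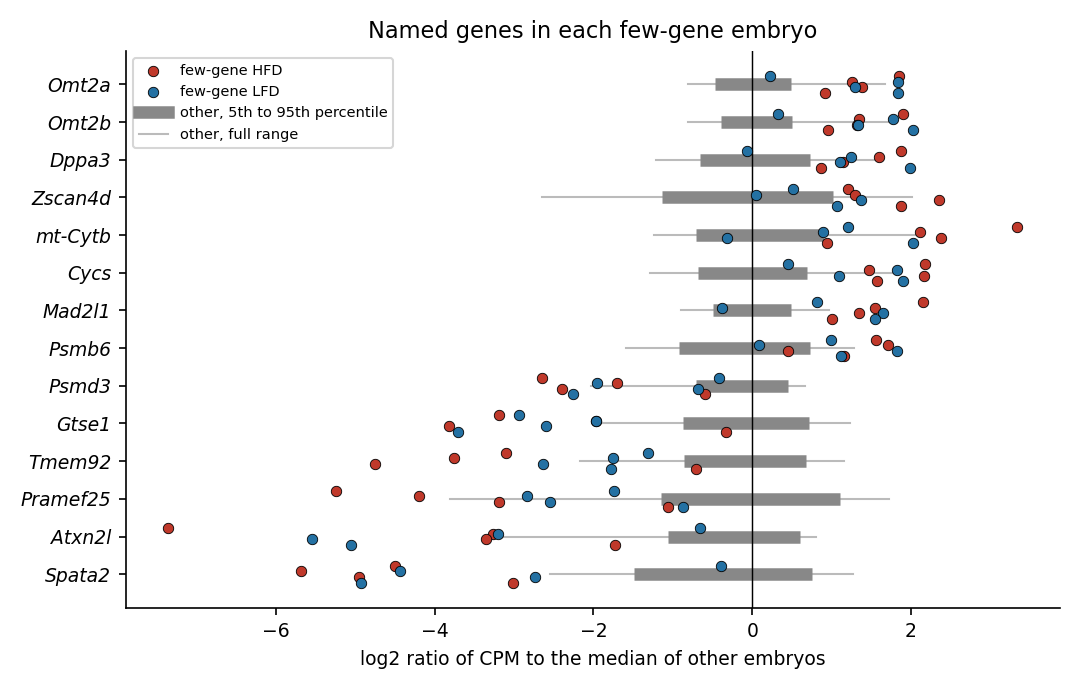
CPM of 14 named genes in each few-gene embryo as a log2 ratio to the median of the 213 other embryos; red and blue points are HFD and LFD few-gene embryos, thick bars the 5th to 95th percentile and thin lines the full range of other embryos. Omt2a to Psmb6 lie mostly to the right and Psmd3 to Spata2 to the left of 0, with single embryos near 0 in several rows.

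The most negative fold change among called genes of at least 3 log2 CPM was that of CT010467.1, which GENCODE types as rRNA (chromosome 17, 39846353 to 39848201, plus strand, GRCm38). It had 858 to 13536 CPM (median 2622) in few-gene embryos and a median of 46515 CPM in others, a log2 fold change of -3.80 ± 0.47, and the weighted fit did not call it (adjusted p = 0.302). Among protein coding genes, Spata2, an adaptor of the CYLD deubiquitinase, fell from a median of 94.6 to 4.27 CPM (log2 -2.76 ± 0.32). Atxn2l, an RNA-binding ataxin-2 relative, fell from 854 to 86.4 CPM (-2.67 ± 0.26). Tkfc, for triokinase, fell from 27.2 to 4.05 CPM, and Gm8016, Gm18856 and Gm15774 fell as well. Vps39, of the lysosomal HOPS complex, stood at 7.25 against 48.1 CPM, with adjusted p = 0.0510 in the weighted fit. In each of these 8 genes, all few-gene embryos were below the others' median. The lowest few-gene values were 0.516 CPM for Tkfc, 0.521 for Gm8016, 0.198 for Gm15774 and 0.459 for Vps39. These lie below the 0.550 to 1.55 CPM that a count of 0 allows, while Spata2, lowest at 1.83 CPM, and the rest stayed above it. The part of dropout in these falls was not tested.

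The largest rises were mostly of unannotated or pseudogene loci. Gm45663, Gm38383 and Gm48273 rose by log2 folds of 2.34 ± 0.14, 2.59 ± 0.24 and 2.31 ± 0.19, with 8 of 8 embryos above the others' median, as did Smkr-ps and Gm28923. Olfr624, an olfactory receptor gene, and Gm37110 rose by 3.49 and 2.63, but by 1.63 and 1.40 without LFD embryo 73, which had 385 and 243 CPM. Gm5435, a processed pseudogene, had 0.397 CPM in LFD embryo 26 and 3391 CPM in HFD embryo 42, and was not called on deviations (adjusted p = 0.615). Several of these loci overlap or copy other genes, and the counting used a strand setting although Smart-seq2 does not mark strand, so reads of a gene and its neighbour on the other strand cannot be told apart.

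Fold changes also followed base composition. GC content of the longest GENCODE transcript was available for 5715 of the 5786 genes. Over 5 equal classes of GC content, the median fold change went from 0.16 in the lowest class (31.9 to 42.6% GC) over 0.10, -0.03 and -0.14 to -0.29 in the highest (53.04 to 82.9% GC). The deviations gave -0.05 in the lowest and -0.60 in the highest class. In the highest class, edgeR called 185 genes higher and 453 lower, and in the lowest 356 higher and 175 lower. Summed over its genes, the highest class lay below the others' median in 8 of 8 few-gene embryos, by 0.24 (LFD embryo 2) to 1.24 (HFD embryo 42) on the log2 scale, and below the others' 5th percentile in 7. Without CT010467.1, whose counts weigh in this sum, the values ran from -0.90 to 0.16, still with 7 of 8 below the 5th percentile. The lowest GC class lay above the others' median in 8 of 8.

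Length showed the same kind of order. The median fold change was 0.24 in the shortest of 5 classes (up to 2096 bases) and -0.13 in the longest (from 7951 bases). Both held side by side: with 3 classes of each, among genes of the lowest GC class the median fell from 0.29 for short to 0.04 for long genes, and among those of the highest GC class from -0.01 to -0.48. Across genes, the rank correlation of the fold change was -0.22 with GC content and -0.16 with length, as a description, since genes share the libraries. Mitochondrial mRNAs had a median GC content of 37.1% and stress response genes 55.7%, against 47.5% for all genes. The part of composition in each list's values was not tested.

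**Figure D5:**
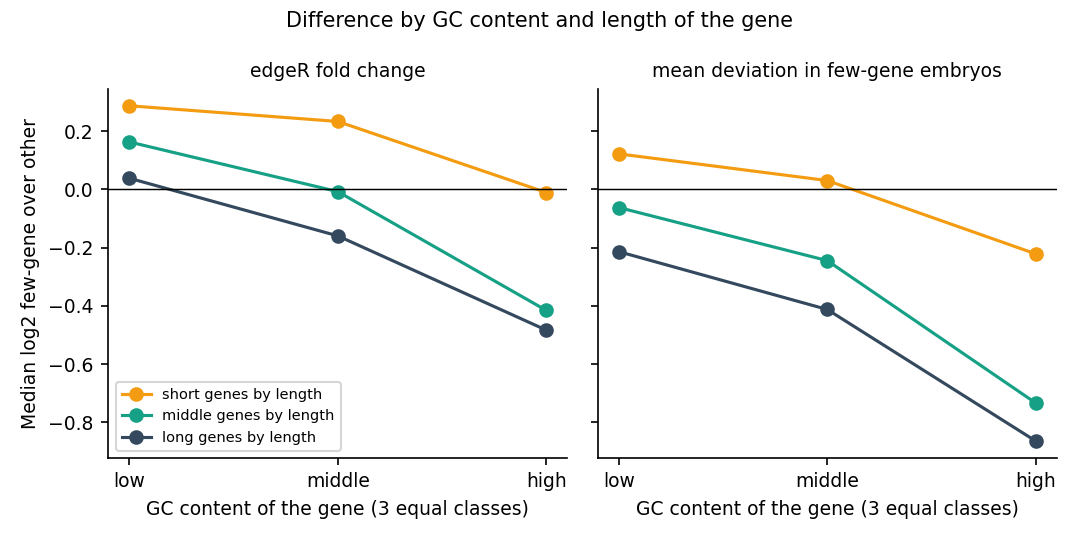
Median log2 difference of few-gene over other embryos for 9 classes of the 5715 genes, by 3 equal classes of GC content (horizontal axis) and of length (colours), from edgeR's fold change (left) and from the mean deviation of few-gene embryos (right). In both panels the median falls with GC content at every length, and with length at every GC content.

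Gene number also varied among the 213 embryos that were not chosen, from 15349 to 21638. In these embryos alone, edgeR's slope on gene number (log2 per 1000 genes, with diet and log2 of total counts as covariates) was called for 450 of the 5786 genes upwards (7.78%) and for 1054 downwards (18.2%), where downwards means a higher level in embryos with fewer genes. Genes given above can be read side by side. The slope was -0.13 for Omt2a and Omt2b, -0.18 for Dppa3 and Zscan4d, -0.16 for mt-Cytb, -0.17 for Cycs and -0.09 for Mad2l1, all called, so these were also higher in unchosen embryos with fewer genes. It was 0.17 for Tmem92, 0.13 for Atxn2l and 0.11 for Psmd3, also called. Spata2 (0.06), Gtse1 (-0.04) and Espl1 (0.02) had slopes that did not pass. Both comparisons use the other embryos. For mitochondrial mRNAs the median slope was 0.01, with 1 of 13 called upwards and 2 downwards, and among mRNA decay factors 3 of 21 were called upwards and 2 downwards. By GC class the median slopes were -0.03 to -0.01, and by length from -0.04 in the shortest to -0.01 in the longest.

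Marker sums of other cells were no higher in few-gene than in other embryos in the medians. The sums and the numbers of detected markers take in the dropout that chose the embryos. They have no test and cannot tell whether other cells were present. Cumulus and granulosa markers summed to 5.15 log2 CPM in the median few-gene and 5.53 in the median other embryo, macrophage markers to 6.08 and 6.49, and sperm and spermatid markers to 8.06 and 8.91. Macrophage sums ran from 4.34 to 7.59 in few-gene embryos and from 5.69 to 12.6 in others, where 9 HFD embryos and no LFD embryo exceeded 10 log2 CPM. Without those 9, edgeR called 1375 genes higher and 1579 lower and the test on deviations 251 and 439. In the sperm list, Odf2 (274 against 474 CPM) also encodes a protein of the centrosome, and it carried most of the sum. The median few-gene embryo had a count for 4 of 19 cumulus, 5 of 16 macrophage and 2 of 12 sperm markers, against 8, 10 and 6 in the median other embryo. Ptgs2, Sfrp2 and the Y-linked gene Zfy2 were at 0 in all 8, but a 0 was also common among the other embryos. The median other embryo was itself at 0 CPM for Ptgs2 and Sfrp2. For Zfy2 it had 1.86 CPM, and the others' 5th percentile was 0 CPM. These zeros therefore do not set few-gene embryos apart. Y-linked genes summed to -0.06 to 5.85 log2 CPM in few-gene embryos and up to 7.22 in others, and the labels give no sex.

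Within the few-gene embryos, edgeR called 0 of 10803 genes (0%) between the 4 HFD and 4 LFD embryos, with 182 at an unadjusted p under 0.05. With so few embryos of wide spread, a difference such as that of mt-Cytb (log2 HFD over LFD 1.34 ± 0.66) did not pass. The lack of calls does not show that diet made no difference. DESeq2 called 5 genes, none of them detected in every embryo, and limma-voom called 0. The smallest p-values belonged to Zfp334, Ptov1 and Gm36241, each at 0 in at least 1 few-gene embryo.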

How the data were processed

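RNA was sequenced from single 2-cell embryos, grouped by the sire's diet given in the sample titles. The authors aligned paired reads with STAR to GRCm38 carrying the Staudach mitochondrial sequence, and the deposited counts per gene were, per the file headers, made with featureCounts 2.0.3 over Ensembl exons with a reverse-strand setting and no filter on genes. Every sample column was used. Totals ran from 1937251 to 17246791 counts. PCR copies were not collapsed, so the highest level allowed for a gene without a count covers counting error only. The binomial intervals concern shares of embryos. Values after ± are SEs of the fits. Those of edgeR rest on a spread common to all embryos and are not the precision among the 8. The SE by edgeR and on deviations was 0.14 and 0.36 for mt-Cytb and 0.26 and 0.70 for Atxn2l. For CT010467.1 it was smaller on deviations, at 0.47 and 0.38.

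The embryos and gene lists were chosen with earlier results of these data known. Few-gene and other embryos were compared with edgeR 4.0.16 (quasi-likelihood test, TMM, filterByExpr, diet as covariate, Benjamini-Hochberg over all genes tested, FDR 0.05) in R 4.3.3, and calls are given for genes with a count in every embryo. Because few-gene embryos varied more, limma 3.58.1 was added after seeing the data, on deviations and as voom with weights by group. DESeq2 1.42.0 was an alternative. The tests were tried on simulated counts, where edgeR called many unchanged genes once few-gene embryos were given a wider spread, and the deviations called few. SE is the fold change over the root of its F statistic. List levels are log2 of summed CPM plus 0.5. Embryos are the units, so p-values take no account of sire. Named genes are, among called genes of at least 3 log2 CPM, the 8 largest and 8 smallest fold changes, the 2 members of each list with the smallest p, 10 genes fixed by name and the 3 smallest p within few-gene embryos. Genes that passed all 3 tests are named besides, chosen after their values were seen. GC content comes from GENCODE vM21 transcripts.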

Additional observations from a re-analysis of the deposited data

Results flagged for a closer look

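Within the few-gene embryos, single embryos stood apart from their group in 3 of 84 sets of values compared by Dixon's test, where chance gives about 1 in 20. LFD embryo 26 had the lowest sum of cell cycle genes, 12.52 log2 CPM, against 13.2 to 13.7 in the other 7. Among the 4 LFD few-gene embryos, LFD embryo 33 had 10880 genes after thinning, against 13855 to 14131. Gene number chose these embryos, so that value is a description and its flag is not read as a test. LFD embryo 2 had the highest rank correlation with the mean of the other embryos, 0.849, against 0.754 to 0.766 in the rest of the LFD few-gene embryos. That correlation takes in genes whose detection chose the embryos, so its flag is not read as a test either.

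The difference between diets itself differed between few-gene and other embryos for 709 of 5786 genes in edgeR's test of the interaction. With limma-voom the number was 433, and with weights that give each group a spread of its own it was 0.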

How the results depend on the processing

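The limit of 4 deviations left 4 few-gene embryos (3 HFD, 1 LFD) and 2.5 deviations gave 12. edgeR called 1415 genes higher and 1539 lower, and each other setting made calls of its own. These were 901 higher and 1853 lower with limma-voom, 876 and 1087 with HFD embryos only and 1222 and 1129 with LFD embryos only. With weights by group they were 382 and 664, and on deviations 261 and 427. More genes were called higher than lower with DESeq2 (1816 and 1218), RLE scaling (1882 and 1181) and a filter at 3 log2 CPM (1984 and 1140). The weights by group, the deviations and the fits without 9 embryos high in macrophage markers were added after seeing the data. Leaving out each few-gene embryo in turn gave 1267 to 1468 higher and 1337 to 1626 lower. Within few-gene embryos, DESeq2 called 5 genes and every other setting 0, the fits without 1 embryo included. The interaction called 433 genes with limma-voom and 0 with weights by group. Except for the group weights, which let the spread differ, the cause of these moves was not tested. Of the 1246 comparisons of a named gene with another setting, 52 lost and 8 gained the call and none reversed it. Depth limits what a count of 0 shows, up to 1.55 CPM in the smallest library.

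Embryo numbers recur in both diets and name embryos rather than pairs: over 94 shared numbers the correlation of deviations had a median of 0.01 and exceeded 0.1 in 20. With the number as a replicate block, fitted with limma-voom, 752 genes were higher and 902 lower, beside 901 and 1853 in the same fit without it. The block was not run in edgeR, and its move to limma-voom was chosen after seeing the data.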
